A study of Arabidopsis thaliana with 16 samples.

Results

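Class III peroxidases are secreted, haem-containing enzymes that plants keep in the cell wall and vacuole. They use hydrogen peroxide to couple phenolic compounds, which cross-links lignin, suberin and wall proteins, and they can also produce reactive oxygen in the wall that loosens it or forms part of the burst against pathogens. In Arabidopsis seedlings many of the genes are known from roots, where they act in root hairs, in the lignin of the Casparian strip and in the balance between cell division and elongation. The 60 genes described here were chosen by their TAIR identifiers, 60 of the 33602 genes in every count file. Those with at least 10 counts in 2 or more libraries are described, which left 51 genes, and these 51 were also among the 21205 genes that were tested.

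RNA was sequenced from whole Arabidopsis thaliana seedlings grown for 5 days in liquid culture, in 16 libraries. Untreated rpn10-1 and untreated rpn12a-1 seedlings, which carry mutations in the RPN10 and RPN12A subunits of the regulatory particle of the proteasome, had 2 libraries each. Wild-type Col-0 seedlings were untreated, or were given 100 µM MG132, a peptide aldehyde that blocks the proteasome, for 3 h or 24 h, with 4 libraries in each group. Untreated seedlings were taken at once when the medium of the others was changed, and no mock-treated group was used here, so MG132, fresh medium, solvent and time in culture cannot be told apart. Each mutant is represented by a single allele, and the accession in which these alleles arose is not among the labels. Nor do the labels say that the libraries of a group came from separate cultures, so the p-values measure the spread between these libraries, which may be technical.

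Total counts per library ran from 6646134 to 21762565, and 0.219% to 0.432% of them fell on the 60 peroxidase genes. RPN10 had 21.8 ± 0.521 CPM in rpn10-1 (SD, n = 2), against 115 ± 18.2 CPM in untreated Col-0 (SD, n = 4), and RPN12A had 47.4 ± 6.47 CPM in rpn12a-1 (SD, n = 2), against 85.4 ± 13.8 CPM in untreated Col-0 (SD, n = 4). CPM are counts divided by the library size after TMM scaling, in the usual per-library unit. The labels note a technical replicate in 8 libraries, which are replicates 3 and 4 of the Col-0 groups and both rpn12a-1 libraries. The other 8, replicates 1 and 2 of the Col-0 groups and both rpn10-1 libraries, carry no such note. This library set was a term in every test, and at 24 h of MG132 the sets differed strongly for part of the family, as described below. The tissue was whole seedlings, and all 6 leaf mesophyll markers and all 8 root hair markers were detected, while the 4 pollen and tapetum markers summed to at most 0.548 CPM in any library. In such bulk samples fewer cells of a type and less RNA per cell cannot be told apart.

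The sequences before 4 of the genes are given here with their matches to 3 short motifs, and no test of expression used them. AT1G49570 and AT4G36430 had the largest rises at 24 h among the genes called at both times of MG132, PRX33 rose at both times and carries the motif TGGGC, and RHS19 fell at 24 h and carries 3 matches of that motif. Each stretch is the 300 bases before the annotated start of the gene, from the TAIR10.1 genome with RefSeq's annotation, written 5′ to 3′ on the strand of the gene. The windows lie at chr1:18346658-18346957 on the plus strand for AT1G49570, chr4:17206034-17206333 on the minus strand for AT4G36430, chr3:18200287-18200586 on the plus strand for PRX33 and chr5:26894478-26894777 on the plus strand for RHS19. Capitals mark matches on either strand to TGGGC, the core bound by the NAC transcription factors of the proteasome stress response, to TTGAC, the core of the W-box of WRKY factors, or to CACGTG, the G-box; on the printed strand a match to the opposite strand reads GCCCA or GTCAA.
AT1G49570: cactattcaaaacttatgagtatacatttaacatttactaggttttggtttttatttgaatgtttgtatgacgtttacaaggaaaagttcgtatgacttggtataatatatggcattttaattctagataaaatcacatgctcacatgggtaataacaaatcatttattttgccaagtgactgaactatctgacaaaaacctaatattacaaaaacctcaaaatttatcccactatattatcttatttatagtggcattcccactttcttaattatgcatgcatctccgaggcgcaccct
AT4G36430: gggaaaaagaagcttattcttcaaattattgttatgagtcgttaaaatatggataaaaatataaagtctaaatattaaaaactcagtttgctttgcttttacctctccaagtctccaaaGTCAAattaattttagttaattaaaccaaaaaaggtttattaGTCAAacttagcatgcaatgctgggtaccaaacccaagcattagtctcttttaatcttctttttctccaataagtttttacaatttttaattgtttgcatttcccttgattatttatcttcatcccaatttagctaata
PRX33: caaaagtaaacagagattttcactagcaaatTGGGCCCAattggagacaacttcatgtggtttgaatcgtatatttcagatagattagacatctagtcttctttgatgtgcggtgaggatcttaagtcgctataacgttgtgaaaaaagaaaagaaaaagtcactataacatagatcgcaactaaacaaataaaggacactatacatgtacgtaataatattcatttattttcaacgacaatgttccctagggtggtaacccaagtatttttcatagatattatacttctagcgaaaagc
RHS19: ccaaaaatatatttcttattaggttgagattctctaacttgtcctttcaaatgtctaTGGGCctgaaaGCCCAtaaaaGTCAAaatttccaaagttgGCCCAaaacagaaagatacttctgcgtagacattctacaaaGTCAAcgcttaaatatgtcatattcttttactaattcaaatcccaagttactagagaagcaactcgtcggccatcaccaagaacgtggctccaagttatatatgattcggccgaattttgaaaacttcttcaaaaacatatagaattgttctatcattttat

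The window of AT1G49570 held no match to any of the 3 motifs. That of AT4G36430 held 2 matches to TTGAC, that of PRX33 held 2 matches to TGGGC, 1 on each strand and overlapping each other, and that of RHS19 held 3 matches to TGGGC and 2 to TTGAC. Across the family TGGGC was rare: 5 of the 51 described genes, 9.8%, held it in these 300 bases, against 27.4% of the 21037 tested genes with such a window. The 5 were PRX33, AT5G19890, RHS19, AT3G01190 and AT2G43480. Of the 10 genes called higher at 24 h of MG132, 1 held TGGGC and 7 held TTGAC, which was present in 52.9% of the described genes and 50.4% of all tested genes. Among the 10 genes called lower at 24 h the counts were 1 and 5, and among the 5 called higher at 3 h they were 2 and 2 in the same order of motifs, with PRX33 and AT5G19890 holding the first. CACGTG was found in 1 of the 51, against 7.94% of all tested genes. A match describes letters in the window and shows no binding.

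The family was carried by a few abundant genes. Per kilobase of exon, the highest level in untreated Col-0 was that of PRXR1 at 584 CPM per kb, then AT3G32980 at 344 and AT2G37130 at 191 CPM per kb. PRXR1 alone made up 30.8% of the summed CPM of the 60 genes in untreated seedlings, AT3G32980 15.3% and AT2G37130 7.92%. PRXR1 stayed level, with 957, 878, 1253 and 1183 CPM in untreated Col-0, 895, 905, 1398 and 1297 CPM at 3 h, and 926, 991, 1048 and 1084 CPM at 24 h. It had 898 and 834 CPM in rpn10-1 and 1228 and 1001 CPM in rpn12a-1, and it passed the test in none of the 6 comparisons. AT3G32980 was not called in any of them either; it had 588, 591, 544 and 395 CPM in untreated Col-0, 487, 549, 588 and 547 CPM at 3 h, and 226, 572, 573 and 573 CPM at 24 h, where replicate 1 stood below the rest. Its 2 rpn10-1 libraries had 228 and 379 CPM and its 2 rpn12a-1 libraries 874 and 481 CPM. Summed over the 60 genes the level was 2596 ± 639 CPM in rpn10-1 and 3898 ± 778 CPM in rpn12a-1 (SD, n = 2 each), and 3468 ± 548, 3628 ± 171 and 2976 ± 578 CPM in Col-0 untreated, at 3 h and at 24 h (SD, n = 4 each), and the range of each of the other groups overlapped that of untreated Col-0.

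Of the 60 genes, 9 had too few counts to be described: AT1G05240, PRX2, AT1G14550, AT1G24110, AT2G18140, AT3G03670, PER36, AT4G17690 and AT5G19880. Their sums over all 16 libraries ran from 1 to 26 counts. PER36, known from seed coat mucilage, had 7 counts in all. AT1G14550 had 20 of its 26 counts and AT5G19880 17 of its 26 counts in the 24 h libraries, against 1 count each in untreated Col-0. PRX2, known from stem lignification, had 7 counts, but every 50-base stretch of its exons also occurs in AT1G05240, so its level cannot be read from these counts. Among the described genes at most 7.47% of such stretches occurred elsewhere in the genome: 7.23% for PRX33 and 7.47% for its neighbour PRX34, 6.07% for Prx37 and 7.44% for its neighbour AT4G08780. Values of these 4 are uncertain, the more so for PRX33 and AT4G08780, the lower gene of each pair.

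Across all 6 comparisons 27 of the 51 genes were called at least once, where 50.96% of all tested genes were, at an adjusted p under 0.05 in edgeR's quasi-likelihood test, and 24 never were. The heat map of the 4 comparisons with untreated Col-0 shows more calls at 24 h of MG132 than at 3 h, and more in rpn10-1 than in rpn12a-1. All tested genes had the same order, so it is not particular to this family. Of 21205 tested genes 5595 were called at 24 h, 3800 at 3 h, 4873 in rpn10-1 and 1039 in rpn12a-1. All 4 comparisons share the untreated Col-0 libraries. Among the 24 were PRX53 and PER4, both low, PRX72, known from lignification, and PER64. PRX72, named after its values were seen, is one example. It had 66.7 and 56.9 CPM in rpn12a-1 and 21.2 and 49.2 CPM in rpn10-1, against 43.4, 28.2, 35.5 and 19.6 CPM in untreated Col-0. Both rpn12a-1 libraries lay above all untreated ones, but the log2 fold change of 0.82 did not pass the test (edgeR adjusted p = 0.4).

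**Figure D1:**
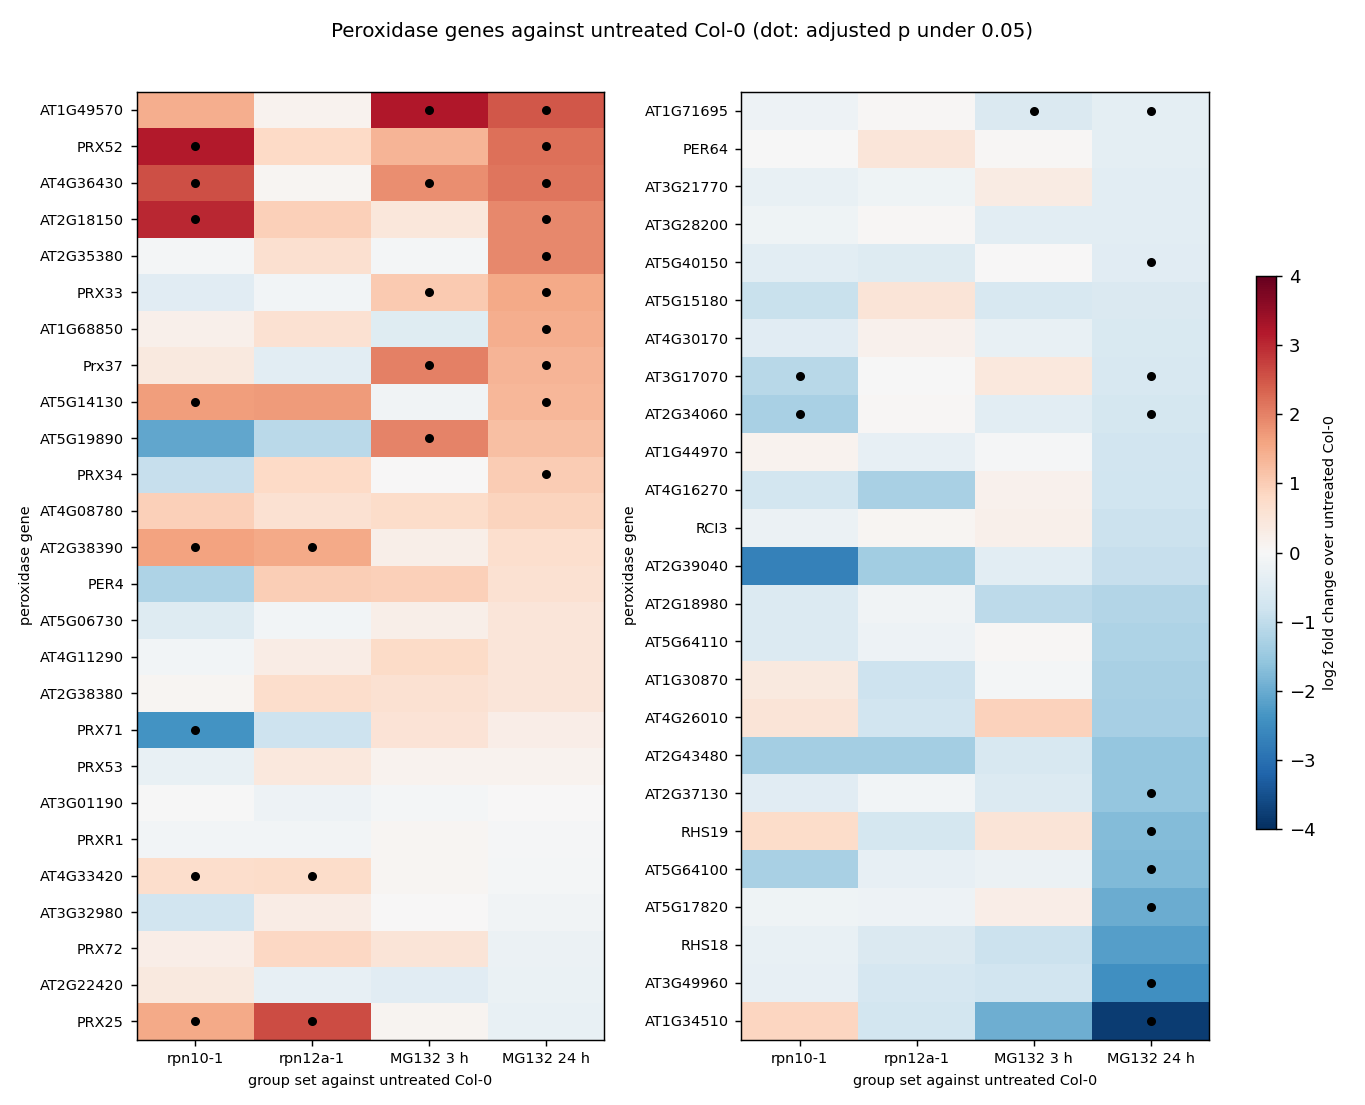
Log2 fold change over untreated Col-0 (colour, red higher and blue lower) of the 51 described peroxidase genes (rows, sorted by the change at 24 h) in rpn10-1, rpn12a-1 and at 3 h and 24 h of MG132 (columns); a dot marks an adjusted p under 0.05. At 24 h 10 genes were called higher and 10 lower, at 3 h 5 and 1, in rpn10-1 7 and 3, and in rpn12a-1 3 and 0. The shares of all tested genes were 12.6% and 13.8% at 24 h and 8.68% and 9.24% at 3 h. They were 11.4% and 11.5% in rpn10-1 and 2.64% and 2.26% in rpn12a-1.

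At 3 h of MG132, 5 of the 51 genes rose, where 8.68% of all tested genes did, and 1 fell, where 9.24% did. Without untreated replicate 4 the count of risers was 3, and without 3 h replicate 2 the count of genes that fell was 2. The 51 genes had a median log2 fold change of 0.06, and all tested genes one of -0.01. The largest rise was that of AT1G49570, which had 15.7, 10.4, 42.4 and 42.4 CPM at 3 h, against 2.97, 1.02, 4.19 and 2.70 CPM in untreated Col-0. Every treated library was above every untreated one, with a log2 fold change of 3.21 ± 0.589 (SE, edgeR adjusted p = 0.0016). Prx37, whose overexpression is known to make plants small, had 60.1, 55.4, 20.5 and 38.0 CPM at 3 h, against 15.1, 5.12, 14.5 and 7.12 CPM in untreated Col-0. The groups did not overlap, and the log2 fold change was 2.01 ± 0.365 (SE, edgeR adjusted p = 0.0014). AT5G19890 had 71.1, 70.9, 61.2 and 71.8 CPM at 3 h, against 19.6, 10.8, 23.8 and 19.2 CPM in untreated Col-0, a log2 fold change of 1.98 ± 0.558 (SE, edgeR adjusted p = 0.024). The difference between 24 h and 3 h was -0.77 on the log2 scale for this gene (edgeR adjusted p = 0.36).

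AT4G36430 and PRX33 also rose at 3 h. AT4G36430 had 3.37, 2.70, 17.5 and 17.9 CPM at 3 h, against 2.24, 2.36, 2.53 and 1.73 CPM in untreated Col-0, a log2 fold change of 1.87 ± 0.479 (SE, edgeR adjusted p = 0.014). Its rise was large in the libraries with the technical replicate note and small in those without it. Fitted within sets, the log2 fold change was 3.07 (edgeR adjusted p = 0.00021) with the note and 0.43 (edgeR adjusted p = 0.72) without. The difference between the sets, tested directly, was 2.62 ± 0.700 on the log2 scale and was not called (SE, edgeR adjusted p = 0.19). PRX33, an apoplastic enzyme known for its part in the oxidative burst against pathogens, had 12.4, 9.94, 6.99 and 7.33 CPM at 3 h, against 3.76, 6.25, 2.39 and 5.05 CPM in untreated Col-0. The groups did not overlap, and the log2 fold change was 1.05 ± 0.269 (SE, edgeR adjusted p = 0.014). The gene that fell was AT1G71695, with 92.9, 94.7, 103 and 104 CPM at 3 h, against 139, 166, 142 and 142 CPM in untreated Col-0. All treated libraries lay below all untreated ones, and the log2 fold change was -0.58 ± 0.114 (SE, edgeR adjusted p = 0.0027).

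Within sets, AT1G49570 changed by 3.64 (edgeR adjusted p = 2.8e-06) with the note and 2.65 (0.072) without, Prx37 by 1.48 (0.016) and 2.48 (0.014), AT5G19890 by 1.65 (0.0083) and 2.21 (0.17), PRX33 by 0.96 (0.064) and 1.19 (0.038), and AT1G71695 by -0.44 (0.057) and -0.70 (0.03), each pair with the note first and the adjusted p in parentheses. The rise of AT4G36430 was not called without untreated replicate 3 (1.63, edgeR adjusted p = 0.073) or untreated replicate 4 (1.49, 0.066), and that of AT5G19890 not without 3 h replicate 1 (1.82, 0.06) or untreated replicate 2 (1.87, 0.07), 3 (1.98, 0.062) or 4 (1.88, 0.067).

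At 24 h of MG132, 10 of the 51 genes rose, where 12.6% of all tested genes did, and 10 fell, where 13.8% did. The count of genes that fell was 5 without 24 h replicate 2 and 6 without untreated replicate 2. The median log2 fold change was -0.31 over the 51 genes and -0.03 over all tested genes. PRX33 had 19.7, 20.6, 7.74 and 6.25 CPM at 24 h, and its log2 fold change was 1.502 ± 0.264 (SE, edgeR adjusted p = 0.00081). PRX34, which lies next to PRX33 on chromosome 3 and acts with it in the oxidative burst, had 280, 265, 103 and 71.0 CPM at 24 h, against 92.6, 85.2, 81.1 and 58.9 CPM in untreated Col-0, a log2 fold change of 1.02 ± 0.252 (SE, edgeR adjusted p = 0.0084). Replicate 4 of the 24 h group lay within the untreated range, while replicates 1 and 2 lay far above it. At 3 h PRX34 had 78.6, 93.1, 78.0 and 67.7 CPM, overlapping the untreated range.

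The levels of the other risers differed as much between libraries. AT1G49570 had 2.15, 3.44, 39.3 and 47.3 CPM at 24 h, so that replicates 1 and 2 lay within the untreated range and replicates 3 and 4 above it; its log2 fold change was 2.47 ± 0.602 (SE, edgeR adjusted p = 0.0078). AT4G36430 had 5.04, 7.24, 21.0 and 10.95 CPM at 24 h, above all untreated libraries, with a log2 fold change of 2.15 ± 0.468 (SE, edgeR adjusted p = 0.0039). Prx37 had 21.7, 27.2, 35.1 and 24.3 CPM at 24 h, again above all untreated libraries, with a log2 fold change of 1.37 ± 0.359 (SE, edgeR adjusted p = 0.012). AT5G19890 had 6.97, 33.1, 72.2 and 73.8 CPM at 24 h, overlapping the untreated libraries, and was not called (log2 fold change 1.20, edgeR adjusted p = 0.13).

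**Figure D2:**
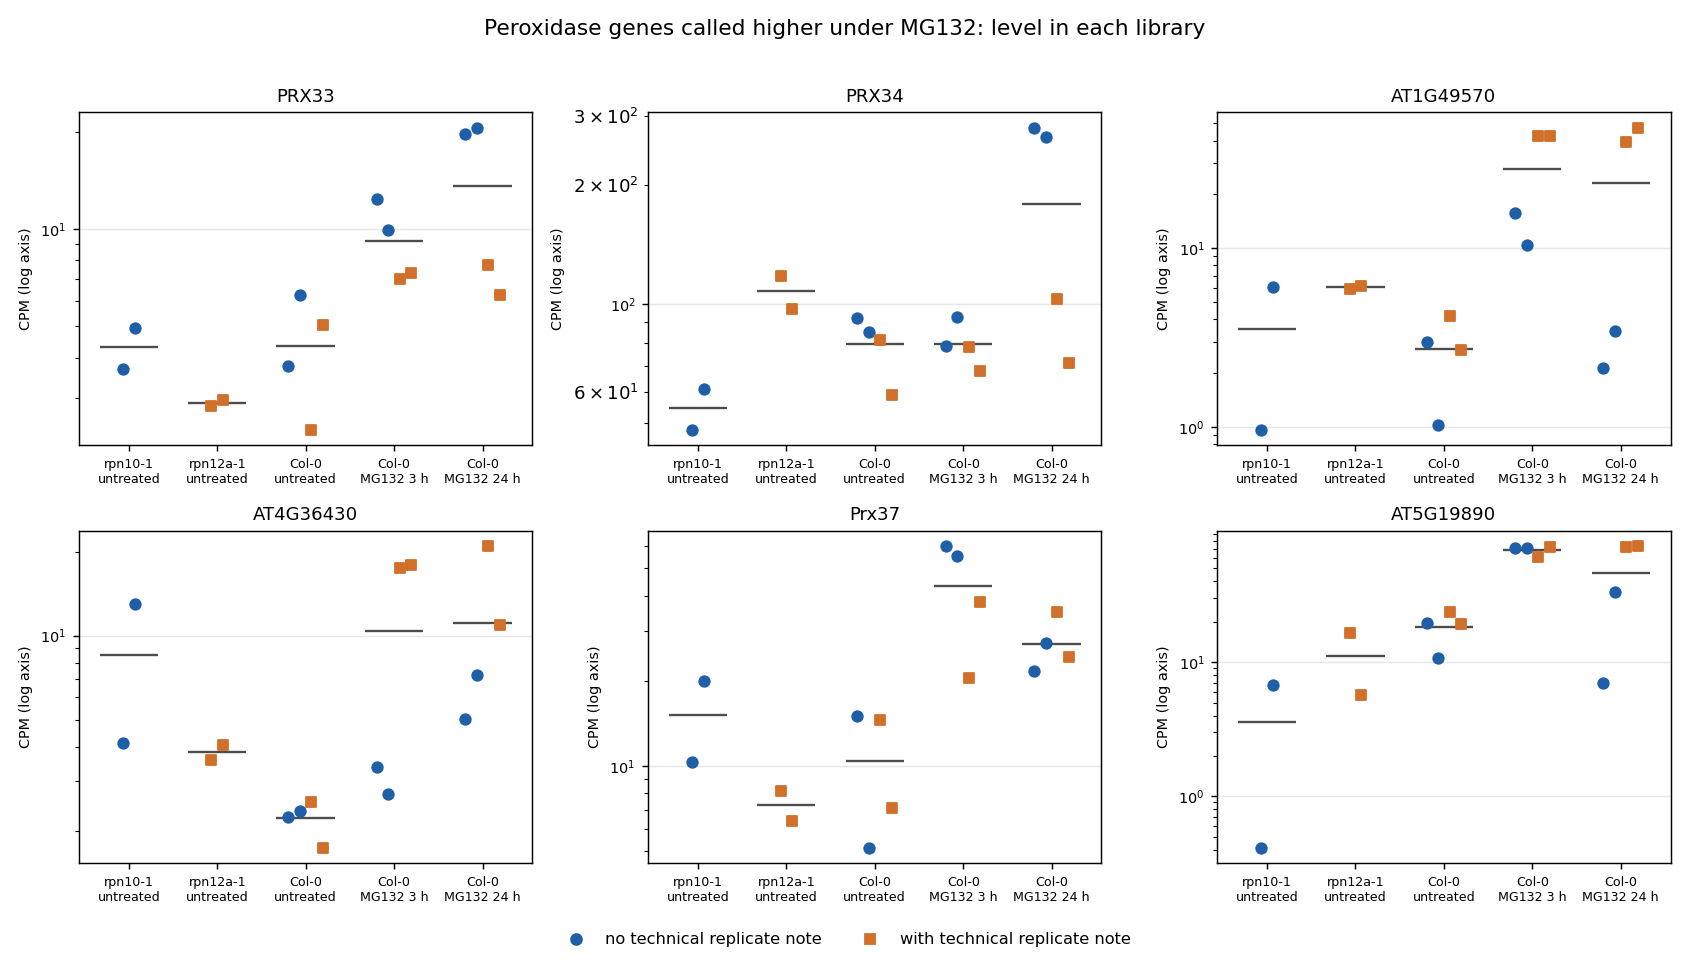
Level of 6 peroxidase genes called higher under MG132 (CPM, log axis) in each library; circles are libraries without the technical replicate note, squares those with it, and horizontal lines are group means. At 24 h PRX33 and PRX34 are highest in the circles (280 and 265 CPM for PRX34) and AT1G49570 in the squares (39.3 and 47.3 CPM).

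Beside AT1G49570, AT4G36430, PRX33 and Prx37, 6 genes were called higher at 24 h. AT2G35380 had 13.5, 25.99, 12.95 and 9.97 CPM at 24 h, against 5.61, 7.69, 2.82 and 2.14 CPM in untreated Col-0, a log2 fold change of 1.91 ± 0.351 (SE, edgeR adjusted p = 0.0011). Its groups did not overlap, and it was called in both library sets. AT1G68850 had 4.72, 10.6, 6.22 and 4.78 CPM at 24 h, against 3.70, 5.02, 1.45 and 1.11 CPM in untreated Col-0, with overlapping groups and a log2 fold change of 1.44 ± 0.398 (SE, edgeR adjusted p = 0.016). The other members called were PRX34, AT2G18150 (1.93), AT5G14130 (1.34) and PRX52 (2.22), the last known from lignification. PRX52 was a low gene, with 0.536, 0.634, 1.59 and 0.843 CPM at 24 h, against 0.198, 0.102, 0.289 and 0.138 CPM in untreated Col-0. AT5G14130 and PRX52 fell outside the rule by which genes were named and are given because they were called. The call of AT1G68850 was lost without 24 h replicate 2 (1.40, edgeR adjusted p = 0.05) or untreated replicate 4 (1.27, 0.05), where the values of 0.05 did not pass the threshold.

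Of the 10 genes that fell at 24 h, AT2G37130, AT5G64100, AT1G71695 and AT5G17820 were among the 8 members with the highest CPM in untreated Col-0. AT5G17820 had 5.04, 7.79, 74.3 and 51.5 CPM at 24 h, against 153, 81.1, 162 and 70.0 CPM in untreated Col-0, a log2 fold change of -1.99 ± 0.670 (SE, edgeR adjusted p = 0.04). AT5G64100 had 17.9, 43.0, 104 and 150 CPM at 24 h, against 307, 162, 291 and 155 CPM in untreated Col-0, a log2 fold change of -1.75 ± 0.453 (SE, edgeR adjusted p = 0.011). All 4 treated libraries of AT5G64100 lay below the untreated ones, while replicate 3 of AT5G17820 overlapped them. AT3G49960 had 0.536, 1.36, 4.38 and 5.13 CPM at 24 h, against 26.3, 12.2, 23.6 and 5.95 CPM in untreated Col-0, a log2 fold change of -2.44 ± 0.625 (SE, edgeR adjusted p = 0.01). RHS19, annotated as root hair specific, had 0.965, 2.26, 7.11 and 6.81 CPM at 24 h, against 21.1, 6.97, 21.0 and 6.43 CPM in untreated Col-0, a log2 fold change of -1.72 ± 0.525 (SE, edgeR adjusted p = 0.026). In AT5G17820, AT5G64100, AT3G49960 and RHS19 the 24 h libraries without the technical replicate note were lower than those with it.

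AT2G37130, the third most abundant gene per kilobase, fell in all 4 libraries. It had 61.8, 78.2, 103 and 136 CPM at 24 h, against 237, 188, 445 and 228 CPM in untreated Col-0. The groups did not overlap, the log2 fold change was -1.55 ± 0.338 (SE, edgeR adjusted p = 0.0039), and within sets it was -1.47 (edgeR adjusted p = 0.0058) with the note and -1.60 (edgeR adjusted p = 0.061) without. AT1G71695 was lower at 24 h too, with 129, 107, 92.2 and 125 CPM and a log2 fold change of -0.38 ± 0.113 (SE, edgeR adjusted p = 0.023). The other genes called lower were AT1G34510 (-3.81), AT2G34060 (-0.70), AT3G17070 (-0.63) and AT5G40150 (-0.46). AT1G34510 had 0.00, 0.0905, 0.127 and 0.843 CPM at 24 h, against 9.24, 2.15, 5.64 and 1.11 CPM in untreated Col-0. AT1G34510 and AT5G40150 fell outside the naming rule and are given because they were called. RHS18, also annotated as root hair specific and named after its values were seen, had 0.00, 0.181, 2.86 and 2.88 CPM at 24 h, against 15.6, 6.35, 9.62 and 2.35 CPM in untreated Col-0, but did not pass the test (log2 fold change -2.21, edgeR adjusted p = 0.066).

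Several of these falls kept their direction but were not called when 1 library was left out. The call of AT5G17820 was lost in 7 of the 16 fits that left out 1 library, among them those without 24 h replicate 1 (-1.46, edgeR adjusted p = 0.12), 24 h replicate 2 (-1.50, 0.14), untreated replicate 1 (-1.72, 0.081), 2 (-2.01, 0.063) or 3 (-1.90, 0.12), and rpn12a-1 replicate 1 (-1.99, 0.051) or 2 (-1.96, 0.053). That of RHS19 was lost without 24 h replicate 1 (-1.37, 0.074) or 2 (-1.49, 0.089) or untreated replicate 1 (-1.34, 0.081) or 3 (-1.44, 0.11), and that of AT3G49960 without untreated replicate 3 (-2.01, 0.064). AT1G71695 was lost without 24 h replicate 2 (-0.34, 0.078) or 3 (-0.29, 0.075), untreated replicate 2 (-0.28, 0.12) or rpn12a-1 replicate 2 (-0.35, 0.05), AT2G34060 without 24 h replicate 2 (-0.55, 0.077) or 3 (-0.64, 0.058) or untreated replicate 2 (-0.53, 0.089), and AT3G17070 without 24 h replicate 1 (-0.62, 0.051), 2 (-0.60, 0.065) or 3 (-0.54, 0.069) or untreated replicate 2 (-0.57, 0.068). In each pair in parentheses the first value is the log2 fold change and the second the edgeR adjusted p. The falls of AT5G64100 and AT2G37130 were called in all 16 of these fits.

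**Figure D3:**
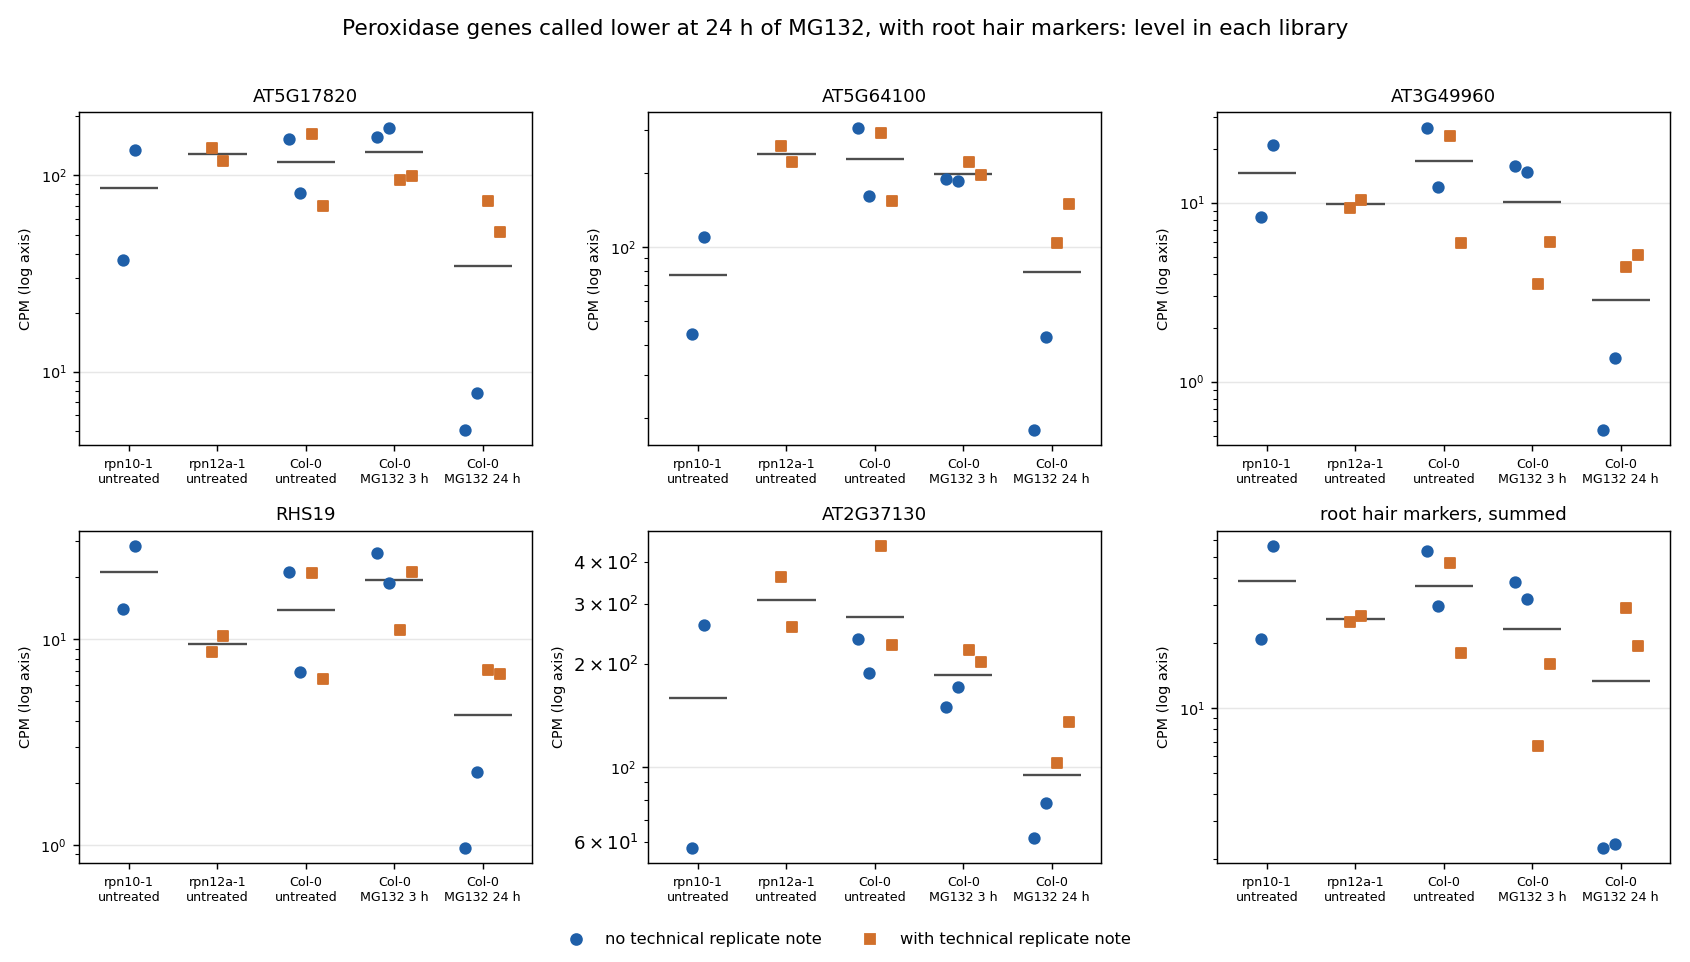
Level of 5 peroxidase genes called lower at 24 h of MG132, and of 8 root hair marker genes summed (CPM, log axis), in each library; circles are libraries without the technical replicate note, squares those with it, and horizontal lines are group means. At 24 h the circles stand lowest in all 6 panels, at 2.25 and 2.35 CPM for the summed root hair markers.

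The 24 h change differed between the library sets. The difference of the change between sets, fitted with a mean for each group and set, was called for 8 of the 51 genes, 15.7%, against 2.52% of all tested genes. In 7 of the 8 the change was more positive with the note, and in PRX34 it was more positive without it. AT2G39040 had 20.5 and 15.7 CPM at 24 h with the note and 0.858 and 0.181 CPM without it, against 16.7 and 4.01 CPM in untreated Col-0 with the note and 24.95 and 12.7 CPM without it. On the log2 scale the difference between the sets was 6.05 ± 0.956 (SE, edgeR adjusted p = 0.019). AT3G01190 had 79.4 and 46.1 CPM at 24 h with the note and 6.75 and 6.43 CPM without it, against 43.3 and 16.7 CPM in untreated Col-0 with the note and 33.7 and 23.9 CPM without it, a difference of 3.20 ± 0.514 (SE, edgeR adjusted p = 0.019). The others were AT5G15180 (4.24), AT5G17820 (3.29), AT2G18980 (2.21), AT4G30170 (2.09) and AT3G21770 (1.63), and PRX34 with -1.30 ± 0.283 (SE, edgeR adjusted p = 0.035). Of the 8, PRX34 and AT5G17820 fell under the naming rule, and the other 6 were named after their values were seen. At 3 h the difference was called for 0 of the 51 genes and 0.0283% of all tested genes in edgeR, with 5 of the 51 at an unadjusted p under 0.05; it was fitted with no other tool.

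Within sets PRX34 changed at 24 h by 0.35 (edgeR adjusted p = 0.28) with the note and 1.61 (0.0004) without, PRX33 by 0.94 (0.066) and 2.04 (0.0015), AT1G49570 by 3.68 (3e-06) and 0.42 (0.72), AT4G36430 by 2.94 (0.00025) and 1.42 (0.073), Prx37 by 1.49 (0.015) and 1.24 (0.071), AT2G35380 by 2.24 (0.0046) and 1.59 (0.021), AT1G68850 by 2.13 (0.018) and 0.84 (0.17), and AT2G18150 by 2.68 (0.0026) and 1.12 (0.3). The genes that fell had -0.85 (0.088) and -4.18 (0.0025) in AT5G17820, -0.78 (0.063) and -2.94 (0.0063) in AT5G64100, -1.60 (0.048) and -4.30 (0.0025) in AT3G49960, -0.94 (0.18) and -3.11 (0.011) in RHS19, -0.36 (0.11) and -0.37 (0.097) in AT1G71695, -0.45 (0.2) and -0.91 (0.054) in AT2G34060, and -0.51 (0.23) and -0.73 (0.048) in AT3G17070. Each pair gives the value with the note first and the adjusted p in parentheses. PER64, the peroxidase of Casparian strip lignin, was not called over both sets (log2 fold change -0.41, edgeR adjusted p = 0.57), with 7.83, 8.15, 27.4 and 22.5 CPM at 24 h, against 35.4, 20.7, 24.95 and 8.85 CPM in untreated Col-0; within sets it had 0.60 (0.28) and -1.82 (0.014). In all, 23 of the 51 genes lay below all 4 untreated libraries in both 24 h libraries without the note, and 10 did so in both libraries with it, where 26.01% and 20.83% of all tested genes did. Above all 4 untreated libraries lay 10 of the 51 genes without the note and 11 with it, where 22.77% and 18.82% of all tested genes did.

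**Figure D4:**
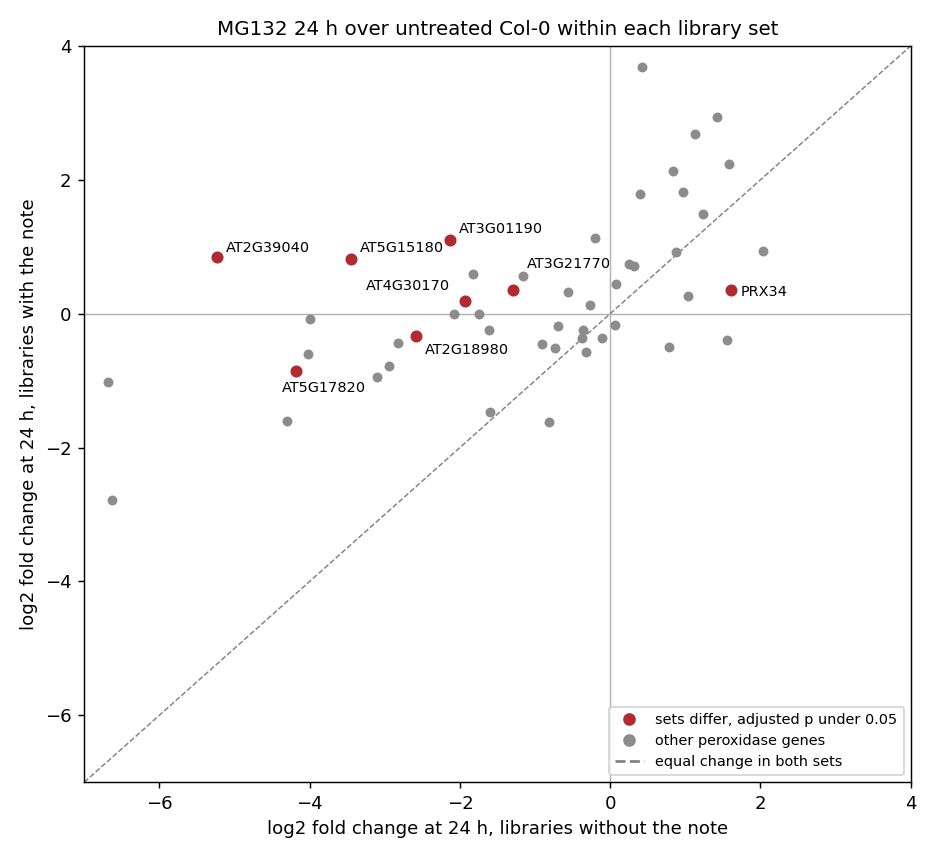
Log2 fold change at 24 h of MG132 over untreated Col-0 within the libraries without the technical replicate note (x axis) and within those with it (y axis), for the 50 described peroxidase genes tested in both sets; the dashed line marks equal change. Most genes that fell lie above the line, and the 8 named genes (red) are those whose difference between sets was called.

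At 24 h root hair markers were lower without the note, as were 7 of the 8 peroxidase genes that differed between sets. PRX34 was higher without it. The 8 root hair markers, among them COBL9, EXPA7 and RHD6, were summed. Their level was 2.25 and 2.35 CPM in the 24 h libraries without the note and 29.1 and 19.5 CPM in those with it. At 3 h it was 38.2, 31.8, 6.65 and 16.1 CPM, in untreated Col-0 53.1, 29.5, 46.6 and 18.1 CPM, and in the mutants 20.7 and 56.2 CPM in rpn10-1 and 25 and 26.5 CPM in rpn12a-1. The summed markers averaged 23.2 CPM at 3 h, against 36.8 CPM in untreated Col-0. RHS19 averaged 19.3 CPM at 3 h, against 13.9 CPM in untreated Col-0, and RHS18 4.87 CPM, against 8.49 CPM. The ranges of 3 h and untreated Col-0 overlapped for the markers and for both genes. None of the 8 markers was at 0 in every library of a group, and 2 of 8 were called lower at 24 h. The summed level of 9 Casparian strip genes was 28.5 and 43.1 CPM at 24 h without the note and 106 and 85.7 CPM with it, against 54.1 to 135 CPM in untreated Col-0. The 6 leaf mesophyll markers, all called lower at 24 h, had a summed level that overlapped between the sets, with 19740 and 19520 CPM without the note and 16190 and 22720 CPM with it, against 28490 to 41300 CPM in untreated Col-0. The part of cell makeup in the change of the peroxidase genes was not tested.

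Set against 3 h, 4 of the 51 genes were higher at 24 h, where 8.27% of all tested genes were, and 7 were lower, where 7.76% were. Over the 51 genes the median was -0.31 on the log2 scale, and over all tested genes -0.0011. The count of higher genes was 2 without 3 h replicate 1 or 2. That of lower genes was 2 without 24 h replicate 1, 3 without 24 h or 3 h replicate 2, and 4 without 3 h replicate 1 or 3, untreated replicate 2 or rpn12a-1 replicate 2. Of the 4 higher genes, AT2G35380 had 13.5, 25.99, 12.95 and 9.97 CPM at 24 h, against 6.32, 8.95, 1.33 and 1.86 CPM at 3 h, a log2 fold change of 1.97 ± 0.364 (SE, edgeR adjusted p = 0.0022). AT1G68850 had 4.72, 10.6, 6.22 and 4.78 CPM at 24 h, against 3.49, 2.27, 1.16 and 0.742 CPM at 3 h, a log2 fold change of 1.92 ± 0.426 (SE, edgeR adjusted p = 0.0075). Neither gene overlapped between the times. PRX34 had a log2 fold change of 1.02 ± 0.254 (SE, edgeR adjusted p = 0.014), with 24 h replicate 4 within the 3 h range, and AT5G14130 by 1.47 ± 0.423 (SE, edgeR adjusted p = 0.029). The call of PRX34 was lost without 3 h replicate 1 (0.86, edgeR adjusted p = 0.06) or 2 (0.98, 0.052), and within sets it was 0.28 (0.45) with the note and 1.67 (0.00072) without.

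The 7 genes lower at 24 h than at 3 h did not overlap between the times. AT4G26010 had 2.04, 3.71, 13.7 and 10.7 CPM at 24 h, against 48.5, 38.9, 15.97 and 36.1 CPM at 3 h, a log2 fold change of -2.24 ± 0.592 (SE, edgeR adjusted p = 0.019). It was called in no comparison with untreated Col-0, where it had 31.1, 9.74, 26.7 and 7.33 CPM. RHS19 had 0.965, 2.26, 7.11 and 6.81 CPM at 24 h, against 26.2, 18.7, 11.1 and 21.2 CPM at 3 h, a log2 fold change of -2.22 ± 0.535 (SE, edgeR adjusted p = 0.012). RCI3, known for its induction by cold and its part in the response to low potassium, had 23.8, 39.8, 90.0 and 62.7 CPM at 24 h, against 105, 94.4, 137 and 103 CPM at 3 h, a log2 fold change of -1.07 ± 0.348 (SE, edgeR adjusted p = 0.049). AT5G17820 was lower by -2.24 ± 0.697 (SE, edgeR adjusted p = 0.041), with 158, 175, 95.1 and 99.6 CPM at 3 h, AT5G64100 by -1.52 ± 0.448 (SE, 0.032), AT3G17070 by -1.06 ± 0.188 (SE, 0.0017) and AT5G40150 by -0.48 ± 0.141 (SE, 0.033), each value in parentheses an edgeR adjusted p.

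Within sets these changes were -1.11 (edgeR adjusted p = 0.18) with the note and -3.91 (0.0064) without in AT4G26010, -1.23 (0.12) and -3.77 (0.0062) in RHS19, -0.63 (0.19) and -1.65 (0.02) in RCI3, -0.62 (0.25) and -4.68 (0.0024) in AT5G17820, -0.71 (0.12) and -2.62 (0.011) in AT5G64100, and -0.997 (0.052) and -1.12 (0.012) in AT3G17070. The call of AT4G26010 was lost without 24 h replicate 1 (-1.84, edgeR adjusted p = 0.067) or 2 (-1.94, 0.075). Of the 16 fits that left out 1 library, RCI3 was not called in 11 (-0.80 without 24 h replicate 1 to -1.17 without 3 h replicate 4), AT5G17820 in 8 (-1.65 without 24 h replicate 1 to -2.24 without rpn12a-1 replicate 1), and AT5G64100 in 5 (-1.12 without 24 h replicate 1 to -1.58 without 3 h replicate 3), the highest adjusted p being 0.16, 0.14 and 0.11 for the 3 genes in this order.

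In rpn10-1, 7 of the 51 genes were higher than in untreated Col-0, where 11.4% of all tested genes were, and 3 were lower, where 11.5% were. The median log2 fold change was -0.19 over the 51 genes and 0.01 over all tested genes. The count of lower genes was 5 without rpn10-1 replicate 2 and 7 without 24 h replicate 1. PRX71, known to limit growth by strengthening the wall and to act in lignification, had the largest fall among the called genes. It had 10.3 and 8.29 CPM in rpn10-1, against 63.6, 36.2, 75.6 and 35.8 CPM in untreated Col-0, a log2 fold change of -2.39 ± 0.321 (SE, edgeR adjusted p = 0.00012). The groups did not overlap, and under MG132 PRX71 was not called (76.7, 76.4, 87.5 and 68.2 CPM at 3 h, and 51.9, 54.2, 85.3 and 62.8 CPM at 24 h). In rpn12a-1 PRX71 had 35.2 and 29.1 CPM, also below every untreated library, but it was not called there. AT2G34060 had 3.15 and 4.47 CPM in rpn10-1, against 9.24, 11.7, 6.87 and 8.30 CPM in untreated Col-0, a log2 fold change of -1.30 ± 0.276 (SE, edgeR adjusted p = 0.0042). AT3G17070 had 4.72 and 3.26 CPM in rpn10-1, against 8.71, 9.12, 7.52 and 7.68 CPM in untreated Col-0, a log2 fold change of -1.10 ± 0.251 (SE, edgeR adjusted p = 0.0068).

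Of the genes that rose in rpn10-1, AT2G18150 had 2.46 and 9.40 CPM, against 0.792, 1.23, 1.01 and 0.415 CPM in untreated Col-0, a log2 fold change of 3.00 ± 0.572 (SE, edgeR adjusted p = 0.0021). AT4G36430 had 4.11 and 12.9 CPM in rpn10-1, against 2.24, 2.36, 2.53 and 1.73 CPM in untreated Col-0, a log2 fold change of 2.59 ± 0.556 (SE, edgeR adjusted p = 0.0047). Within the libraries without the note, to which both rpn10-1 libraries belong, the log2 fold change was 2.54 (edgeR adjusted p = 0.032) for AT2G18150 and 1.85 (0.029) for AT4G36430, and for AT4G36430 it was 1.93 (0.086) with no term for the set. In both genes replicate 2 was over 3 times as high as replicate 1. The other genes called higher were AT2G38390, AT4G33420 and PRX25, described below, and AT5G14130 (1.67) and PRX52 (3.16). AT5G14130 had 2.53 and 7.36 CPM in rpn10-1, against 2.18, 1.74, 1.81 and 0.899 CPM in untreated Col-0. PRX52, a low gene, had 0.411 and 2.05 CPM, against 0.198, 0.102, 0.289 and 0.138 CPM. In both, replicate 2 was again far above replicate 1.

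The 2 rpn10-1 libraries stood far apart for some members. AT2G37130 had 57.7 and 261 CPM, AT5G17820 37.2 and 135 CPM and AT5G19890 0.411 and 6.70 CPM in the 2 rpn10-1 libraries. Without rpn10-1 replicate 2 the count of genes called higher dropped to 1, and the calls of AT2G18150 (1.76, edgeR adjusted p = 0.051), AT4G36430 (1.56, 0.091), AT2G38390 (1.21, 0.078), AT4G33420 (0.59, 0.066) and AT3G17070 (-0.87, 0.057) were lost. That of AT2G34060 was lost without replicate 1 (-1.06, 0.069). PRX71 was called in all 16 fits that left out 1 library.

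In rpn12a-1, 3 of the 51 genes were higher than in untreated Col-0, where 2.64% of all tested genes were, and 0 were lower, where 2.26% were. The medians were -0.02 over the 51 genes and -0.01 over all tested genes on the log2 scale. The count of higher genes was 1 without untreated replicate 3 or 4, and that of lower genes 1 without untreated replicate 4. DESeq2 also called 0 lower, and 2 were lower at an unadjusted p under 0.05. The 3 higher genes were PRX25, AT2G38390 and AT4G33420, and their values in rpn10-1 are given beside those in rpn12a-1. PRX25, known from stem lignification, had 10.8 and 11.1 CPM in rpn12a-1 and 4.86 and 4.19 CPM in rpn10-1, against 1.85, 1.23, 1.66 and 1.94 CPM in untreated Col-0. No library of either mutant overlapped the untreated ones, and the log2 fold change was 2.61 ± 0.295 (SE, edgeR adjusted p = 4.4e-05) for rpn12a-1 and 1.51 ± 0.313 (SE, edgeR adjusted p = 0.0038) in rpn10-1. The difference between the mutants was 1.105 ± 0.386 (SE, edgeR adjusted p = 0.099). Under MG132 PRX25 had 2.24, 1.14, 2.00 and 1.67 CPM at 3 h and 1.07, 1.36, 2.03 and 0.913 CPM at 24 h and was not called.

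AT2G38390 had 31.8 and 17.4 CPM in rpn12a-1 and 23.8 and 38.5 CPM in rpn10-1, against 10.96, 9.32, 10.3 and 6.92 CPM in untreated Col-0, which gave log2 fold changes of 1.52 ± 0.391 (SE, edgeR adjusted p = 0.036) for rpn12a-1 and 1.60 ± 0.392 (SE, edgeR adjusted p = 0.01) for rpn10-1. AT4G33420 had 29.7 and 36.6 CPM in rpn12a-1 and 28.2 and 32.3 CPM in rpn10-1, against 22.0, 16.6, 20.1 and 18.2 CPM in untreated Col-0, which gave 0.74 ± 0.172 (SE, edgeR adjusted p = 0.019) for rpn12a-1 and 0.69 ± 0.173 (SE, edgeR adjusted p = 0.011) in rpn10-1. Neither gene overlapped between a mutant and untreated Col-0. In rpn12a-1 the call of AT2G38390 was lost without rpn12a-1 replicate 1 (1.03, edgeR adjusted p = 0.42), without untreated replicate 1 (1.55, 0.057), 2 (1.51, 0.066), 3 (1.67, 0.064) or 4 (1.39, 0.12), or without 24 h replicate 3 (1.47, 0.057). That of AT4G33420 was lost without rpn12a-1 replicate 2 (0.60, 0.24) or untreated replicate 3 (0.76, 0.058) or 4 (0.68, 0.077). Within the libraries of each mutant's own set, PRX25 changed by 2.61 (0.00065), AT2G38390 by 1.53 (0.01) and AT4G33420 by 0.81 (0.0073) in rpn12a-1, and by 1.51 (0.022), 1.59 (0.011) and 0.62 (0.052) in rpn10-1 in the same order.

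**Figure D5:**
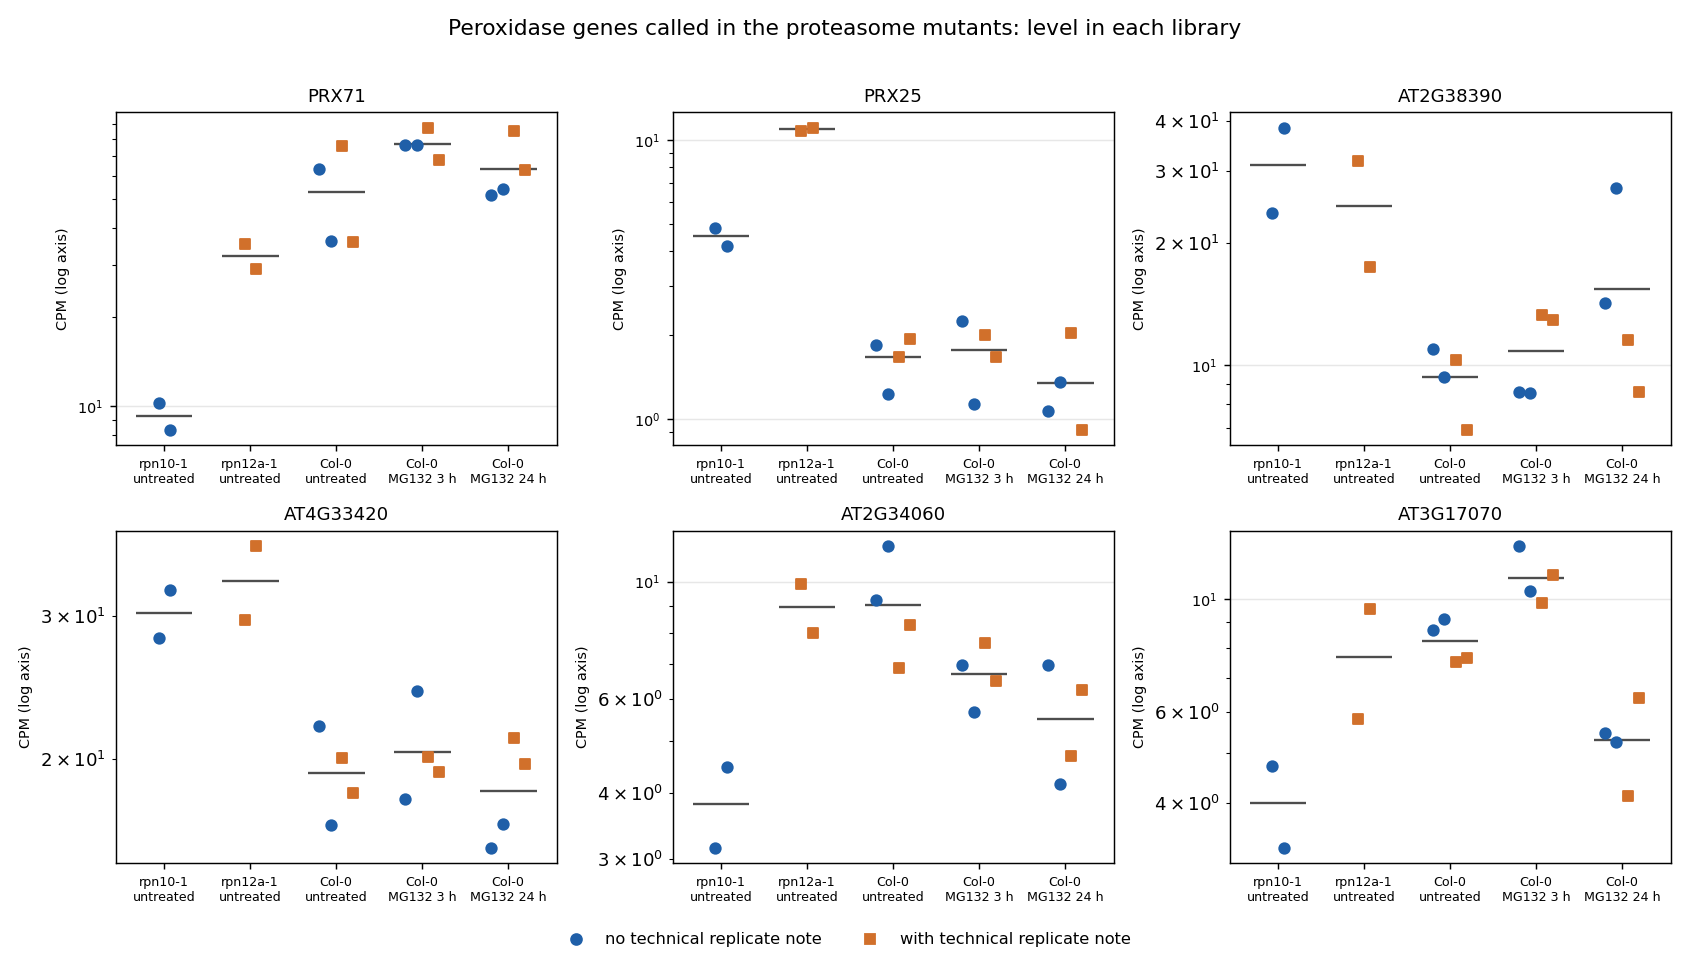
Level of 6 peroxidase genes called in rpn10-1 or rpn12a-1 (CPM, log axis) in each library; circles are libraries without the technical replicate note, squares those with it, and horizontal lines are group means. PRX71 stands at 10.3 and 8.29 CPM in rpn10-1, below all other groups, and PRX25 at 10.8 and 11.1 CPM in rpn12a-1, above all other groups.

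Set against rpn10-1, 3 of the 51 genes were higher in rpn12a-1, where 3.85% of all tested genes were, and 1 was lower, where 2.46% were. On the log2 scale the median was 0.25 over the 51 genes and -0.01 over all tested genes. The count of higher genes was 5 without 24 h replicate 1, 1 without rpn12a-1 replicate 1, and 0 without rpn12a-1 replicate 2 or rpn10-1 replicate 1. That of lower genes was 3 without rpn10-1 replicate 1 and 0 in 11 other fits. PRX71 had 35.2 and 29.1 CPM in rpn12a-1, against 10.3 and 8.29 CPM in rpn10-1, a log2 fold change of 1.57 ± 0.373 (SE, edgeR adjusted p = 0.022). PRX34 had 118 and 97.4 CPM in rpn12a-1, against 48.1 and 61.1 CPM in rpn10-1, a log2 fold change of 1.72 ± 0.410 (SE, edgeR adjusted p = 0.022). AT2G34060 had 9.88 and 7.997 CPM in rpn12a-1, against 3.15 and 4.47 CPM in rpn10-1, a log2 fold change of 1.37 ± 0.336 (SE, edgeR adjusted p = 0.026). AT4G36430 had 3.59 and 4.05 CPM in rpn12a-1, against 4.11 and 12.9 CPM in rpn10-1, a log2 fold change of -2.50 ± 0.709 (SE, edgeR adjusted p = 0.049).

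The mutants lie wholly in different library sets, so this comparison rests on the set term. That term was estimated over the Col-0 libraries, treated and untreated alike, and applied to the mutants. AT4G36430 averaged 2.13 CPM with the note and 2.30 CPM without it in untreated Col-0, but 17.7 and 3.03 CPM at 3 h. PRX34 averaged 70.0 and 88.9 CPM in untreated Col-0, but 87.1 and 272 CPM at 24 h, in the same order. The values of these genes between the mutants therefore carry set differences seen under MG132. With no term for the set the values were 0.98 for PRX34 (edgeR adjusted p = 0.28) and -1.14 for AT4G36430 (0.48), and neither was called. When 1 library was left out, PRX71 was lost without either rpn10-1 library (1.74 and 1.43) or either rpn12a-1 library (1.43 and 1.70), with adjusted p up to 0.11, PRX34 without rpn10-1 replicate 1 (1.56) or either rpn12a-1 library (1.58 and 1.86), up to 0.11, and AT2G34060 without the same 3 libraries (1.13, 1.21 and 1.51), up to 0.15. AT4G36430 was lost in 11 of 16 such fits, with values of -1.47 without rpn10-1 replicate 2 to -2.62 without untreated replicate 3 and an adjusted p up to 0.21.

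By position, 20 of the 60 genes lie in 9 arrays of neighbours at most 10000 bases apart in the TAIR10.1 annotation, and neighbours did not share their calls throughout. PRX33 (chr3:18200587-18203265) and PRX34 (chr3:18207651-18210333), both on the plus strand, were called higher at 24 h, and at 3 h PRX33 alone was called, with PRX34 at a log2 fold change of 0.01. AT5G64100, AT5G64110 and PRX71 lie in 1 array at chr5:25650567-25661007 on the minus strand. Of these AT5G64100 was called lower at 24 h, AT5G64110 was not called (-1.24, edgeR adjusted p = 0.056), and PRX71 was called in rpn10-1 and between the mutants. AT2G38380, beside AT2G38390 on chromosome 2, had 351 and 159 CPM in rpn12a-1 and 137 and 191 CPM in rpn10-1, against 164, 173, 164 and 121 CPM in untreated Col-0, and was not called in any comparison. AT4G08780, beside Prx37, had a log2 fold change of 0.75 at 3 h (edgeR adjusted p = 0.14) and 0.88 at 24 h (edgeR adjusted p = 0.055). AT5G64110, AT2G38380 and AT4G08780 were named for their position after their values were seen.

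Genes that feed or share the peroxidases' substrates were counted from lists chosen with earlier results of these data known. The counts of all the lists are to be read against the shares of all tested genes called higher and lower, which were 8.68% and 9.24% at 3 h, 12.6% and 13.8% at 24 h, 11.4% and 11.5% in rpn10-1, and 2.64% and 2.26% in rpn12a-1. Of 8 tested NADPH oxidases, which make the superoxide that gives rise to wall hydrogen peroxide, 2 rose and 1 fell at 3 h, and 0 rose and 2 fell at 24 h, in edgeR. RBOHA had 2.19, 2.41, 3.49 and 3.06 CPM at 3 h, against 1.06, 0.512, 1.01 and 0.415 CPM in untreated Col-0, a log2 fold change of 1.83 ± 0.340 (SE, edgeR adjusted p = 0.0017), and RBOHF fell by 0.63 on the log2 scale (edgeR adjusted p = 0.0076). RBOHC, the root hair oxidase, had 1.07, 0.724, 8.51 and 5.76 CPM at 24 h, against 10.8, 5.23, 17.1 and 6.36 CPM in untreated Col-0, a log2 fold change of -1.46 ± 0.494 (SE, edgeR adjusted p = 0.041). In rpn10-1 1 rose and 1 fell, and in rpn12a-1 1 fell, RBOHF at -0.70 (edgeR adjusted p = 0.045). All 3 listed regulators of peroxidase genes, UPB1, KUA1 and MYB30, fell at 3 h. UPB1, a repressor of root peroxidases, had 3.37, 1.42, 1.83 and 1.95 CPM at 3 h, against 8.91, 5.84, 7.74 and 2.49 CPM in untreated Col-0 (-1.47, edgeR adjusted p = 0.044), and 0.616 and 0.931 CPM in rpn10-1 (-2.94, edgeR adjusted p = 0.0099). KUA1 changed by -0.75 (edgeR adjusted p = 0.0033) and MYB30 by -0.58 (edgeR adjusted p = 0.0035) at 3 h; at 24 h 1 of the 3, MYB30, was lower (-0.46, edgeR adjusted p = 0.011).

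Of the 18 genes listed under monolignol synthesis, which makes the precursors of lignin, 3 fell at 3 h and 4 at 24 h. In rpn10-1 6 fell and in rpn12a-1 1 fell, and none was called higher in these 4 comparisons in edgeR. Of all tested genes 9.24%, 13.8%, 11.5% and 2.26% fell in that order, and the median log2 fold change of the 18 was -0.08, -0.34, -0.47 and -0.38. The listed 4-coumarate ligase 4CL3 was lower in all 4 comparisons, with log2 fold changes of -0.90 at 3 h, -1.74 at 24 h, -1.88 in rpn10-1 and -1.30 in rpn12a-1 (edgeR adjusted p = 0.0026, 7.1e-06, 7.8e-05 and 0.0038). Another listed ligase, 4CL1, averaged 127 CPM in untreated Col-0, 112 CPM at 3 h and 101.5 CPM at 24 h. It averaged 86.6 CPM in rpn10-1 and 113 CPM in rpn12a-1. The level of 4CL3 alone does not give the supply of lignin precursors. PAL2, which starts the pathway, changed by -1.34 in rpn10-1 (edgeR adjusted p = 0.0015). Of 15 tested laccases, which polymerise lignin with oxygen, 0 rose and 1 fell at 3 h, 3 rose and 2 fell at 24 h, 2 rose and 2 fell in rpn10-1, and 0 were called in rpn12a-1. LAC9 changed by -1.40 at 3 h (edgeR adjusted p = 0.038) and -3.19 at 24 h (edgeR adjusted p = 0.00035), and LAC5 rose at 24 h by 1.504 (edgeR adjusted p = 0.0025). Of 9 Casparian strip genes 1, CASP5, was called lower at 24 h (-1.50, edgeR adjusted p = 0.026), and 0 were called at 3 h or in either mutant.

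Of 14 extensins and proline-rich wall proteins, which peroxidases cross-link, 0 were called at 3 h and 6 fell at 24 h, where 13.8% of all tested genes did, with a median of -1.80 over the list, against -0.03 over all tested genes. EXT6 changed by -2.09 (edgeR adjusted p = 0.0067) and EXT9 by -1.84 (edgeR adjusted p = 0.009). EXT10 had 3.75, 8.87, 20.2 and 12.0 CPM at 24 h, against 65.9, 13.8, 63.6 and 27.0 CPM in untreated Col-0. In rpn10-1 1 of the 14, EXT9, was higher (1.83, edgeR adjusted p = 0.021), and in rpn12a-1 0 were called. EXT9 had 21.8 and 74.8 CPM in rpn10-1, against 23.8, 6.15, 27.4 and 11.6 CPM in untreated Col-0. Replicate 1 of rpn10-1 lay within the untreated range. Of 14 tested scavengers of hydrogen peroxide and superoxide, 1 rose at 3 h, the cytosolic ascorbate peroxidase APX1 (0.59, edgeR adjusted p = 0.0097), and 3 fell at 24 h, TAPX (-0.88, edgeR adjusted p = 0.0004), CAT2 (-0.59, edgeR adjusted p = 0.014) and CSD2 (-1.12, edgeR adjusted p = 0.027). In rpn10-1 2 rose and 2 fell, with APX1 at -0.75 (edgeR adjusted p = 0.011), and in rpn12a-1 0 were called.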

How the data were processed

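RNA was sequenced from 16 seedling libraries with an unstranded kit, and without strand a gene cannot be told apart from its antisense partner. The deposited values are raw counts of reads per gene, made by the authors with Trimmomatic, TopHat, Bowtie2 and HTSeq on TAIR10, and edgeR is named too, per the submitters' processing notes. Not given in the sources used here are versions and the handling of reads that match several places.

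From the counts, all 16 libraries entered 1 edgeR 4.0.16 quasi-likelihood fit (R 4.3.3, limma 3.58.1) with a mean for each group and a term for the library set, TMM factors and filterByExpr, which kept 21205 genes. Genes with a Benjamini-Hochberg adjusted p under 0.05 were called. Standard errors are the log2 fold change divided by the root of F and are approximate. With 6646134 to 21762565 counts per library, depth limits the precision of the low genes most. The steps were checked on simulated data. Alternatives were DESeq2 1.42.0, other size factors, no filter, no set term, each set alone, only the groups compared, the replicate block and each library left out; a mean for each group and set was added after seeing the data.

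The members and lists were chosen with earlier results of these data known. Members were named by a rule: in each comparison with untreated Col-0 and at 24 h against 3 h, up to 5 called members with the largest rise and up to 5 with the largest fall with the higher group averaging 5 CPM or more, the 3 with the highest CPM per kb, and PRX33, PRX34, PRX71 and PER64. From each other list up to 2 genes with the smallest p were named, and RBOHC, UPB1 at 3 h, EXT10 and CSD2 after their values were seen. Sequences are from the TAIR10.1 genome with RefSeq annotation; proteins were not used here.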

Additional observations from a re-analysis of the deposited data

Results flagged for a closer look

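In 78 groups of 4 libraries examined for a library far from the others, 3 were marked, and chance marks about 1 in 20. AT5G19890 was at 61.2 CPM in 3 h replicate 3, below the other treated libraries of that time. AT1G71695 was at 166 CPM in untreated replicate 2, above the other untreated libraries. AT3G32980, one of the most abundant members, was at 226 CPM in 24 h replicate 1, where the other 24 h libraries had 572 to 573 CPM.

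Effects of the same treatment differed between its times for 9 named members, by the edgeR test of 24 h against 3 h. The log2 differences were 1.97 in AT2G35380, 1.92 in AT1G68850 and 1.02 in PRX34, which were higher at 24 h. They were -2.24 in AT4G26010, -2.24 in AT5G17820, -2.22 in RHS19, -1.52 in AT5G64100, -1.07 in RCI3 and -1.06 in AT3G17070, which were lower. Between the mutants 4 named members differed: PRX34 by 1.72, PRX71 by 1.57 and AT2G34060 by 1.37, higher in rpn12a-1 than in rpn10-1, and AT4G36430 by -2.50, lower in rpn12a-1. The mutants lie in different library sets. The change at 24 h of MG132 differed between the library sets for 2 named members, by 3.29 in AT5G17820 and -1.30 in PRX34 (log2, with the technical replicate note minus without it).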

How the results depend on the processing

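Of 1127 values of the 46 named calls recomputed under all alternatives, 975 kept direction and call, 152 kept the direction but lost the call, and 0 reversed. Leaving out 1 library gave 736 of the 1127 values, and 26 of the 46 calls were lost in at least 1 of these fits. DESeq2 lost 0 of 46, only the groups compared 6, the replicate block 7 and no term for the set 12. Each set alone lost more, with 17 of 34 calls lost in libraries with the technical replicate note and 12 of 39 without it. Counts of members called moved as follows, where the cause was not tested unless stated. With no term for the library set, 24 h against 3 h gave 2 higher and 4 lower, 3 h gave 3 higher and rpn12a-1 against rpn10-1 gave 0 lower. Among all 21205 tested genes these counts were 1197, 1192, 1359 and 280 in that order. In the libraries without the technical replicate note alone, 24 h gave 5 higher and 20 lower, 3 h 2 higher, rpn10-1 4 higher and 7 lower, and 24 h against 3 h 22 lower. Over the 20487 genes tested there, the counts were 2549, 2772, 682, 2372, 2848 and 2707 in that order. In those with the note alone, 24 h gave 4 lower, 3 h 4 lower, rpn12a-1 6 higher and 24 h against 3 h 2 lower. Here 1738, 2017, 702 and 1008 of 20588 tested genes were called in the same order. With no filter, which also tests members at almost no counts, 24 h gave 17 higher and 20 lower, 3 h 12 and 8, rpn10-1 11 and 11, rpn12a-1 7 and 6, rpn12a-1 against rpn10-1 10 and 8, and 24 h against 3 h 18 lower. Of 30022 tested genes, 3166 were higher and 3258 lower at 24 h, 1911 and 2518 at 3 h, and 3034 and 2910 in rpn10-1. There were 973 and 1010 in rpn12a-1, 1508 and 1517 in rpn12a-1 against rpn10-1, and 2141 lower at 24 h against 3 h. With only the groups compared, 3 h gave 9 higher and 3 lower, where 2064 and 2242 of 19678 tested genes were. In that setting rpn12a-1 against rpn10-1 gave 0 lower, where 80 of 20226 tested genes were. For rpn12a-1 against rpn10-1 DESeq2 gave 5 higher and its size factors 0 lower, where 1230 and 508 of 21205 tested genes were. A mean for each group and set, chosen after seeing the data, gave 15 lower for 24 h against 3 h, 22 lower for 24 h, 4 lower for 3 h and 7 lower for rpn10-1. Under it 2747, 4067, 2669 and 3462 of 21205 tested genes were lower in that order.

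The replicate block gave 3 lower for 24 h against 3 h and 0 lower for rpn12a-1 against rpn10-1, where 1329 and 313 of 21205 tested genes were. Otherwise it moved no count of members by over 1.5 times. Of the 46 named calls 7 were lost under it: AT2G38390 in rpn12a-1 (1.29, edgeR adjusted p = 0.066), AT4G36430 (-1.05, 0.34) and PRX34 (0.98, 0.14) in rpn12a-1 against rpn10-1, AT5G17820 at 24 h (-1.98, 0.062), and AT5G17820 (-2.26, 0.06), AT5G64100 (-1.53, 0.055) and RCI3 (-1.08, 0.06) at 24 h against 3 h. Around group means, same-numbered libraries correlated by 0.277 to 0.533 between 3 h and untreated Col-0 and by -0.188 to 0.396 elsewhere. Around the means of group and library set, a term of the fit, the 3 h and untreated values were 0.0359 and -0.0611, so the numbers were not taken to pair the libraries.

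When 1 library was left out, higher and lower counts ran from 2 to 5 and 2 to 9 for 24 h against 3 h, 7 to 12 and 5 to 13 for 24 h, 3 to 7 and 1 to 2 for 3 h, 1 to 8 and 2 to 7 for rpn10-1, 1 to 4 and 0 to 1 for rpn12a-1, and 0 to 5 and 0 to 3 for rpn12a-1 against rpn10-1. Members at under 1 CPM, such as PRX52, are limited most by depth.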
